A study of Mus musculus with 6 samples.

Results

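Expression of Wnt pathway genes was compared between retinas of newborn mice that lack cyclin D1 (Cyclin D1 -/-) and retinas of newborn wildtype mice. A list of 46 genes for Wnt ligands, receptors, secreted inhibitors, relay proteins and nuclear factors was matched to the probe sets of an Affymetrix expression array by current symbol or older alias, and 45 of the 18193 genes named on the array belonged to it. Tcf7 had no probe set with that symbol alone. Where a gene had several probe sets, the one with the highest mean over all arrays stood for it. The labels give 3 numbered pools of retinas for each genotype, all taken at birth, and 1 array for each pool. The strain, the number of animals in a pool and the way the Ccnd1 gene was disrupted are not in the labels, and the p-values reflect only how far these pools spread, which may be technical. The arrays were made to ask which genes change when cyclin D1, a cell cycle protein that also sits on promoters, is missing. Data on its binding were not used here.

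Wnt ligands are lipid-modified secreted proteins that bind Frizzled receptors and the co-receptors Lrp5 and Lrp6. In the branch that runs through beta-catenin, binding stops a cytoplasmic complex of Axin, Apc and Gsk3b from marking beta-catenin for destruction, and beta-catenin then joins Tcf and Lef factors on DNA. Secreted proteins of the Sfrp, Dkk and Wif families hold the ligands or the co-receptors in check, and R-spondins raise the number of receptors at the cell surface. In the developing eye the pathway is best known for its role at the ciliary margin and in the pigment epithelium, and Norrin acting through Fzd4 guides growth of retinal vessels. Ccnd1 itself is a well-known target of beta-catenin in other tissues.

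Ccnd1 was lower in all 3 knockout pools, at 8.86, 8.81 and 8.92 on the scale of log2(signal + 16), against 12.43, 12.35 and 12.56 in wildtype pools 1 to 3, so every pool lay on the side of its label. The median deposited signal of an array was 40.6 to 50.5 units, and 3 arrays a genotype set the precision. Bacterial BioB and BioC control transcripts gave more signal on wildtype pool 3, knockout pool 1 and knockout pool 2 than on the remaining 3 arrays. Their mean log2 signal was 10.15, 9.82 and 9.97 on these arrays. It was 9.66, 9.66 and 9.53 on wildtype pools 1 and 2 and knockout pool 3. The values form a gradient without a clear gap, so the 2 sets are a cut by rank and not known batches. Differences are also given within each of these 2 sets of arrays. Each set holds 1 array from one genotype and 2 arrays from its counterpart. Wildtype pools 1 and 2 were more alike than most pairs, with an SD of their log2 difference of 0.22, as were knockout pools 1 and 2 (0.21), against 0.28 to 0.52 for all other pairs, and whether they share tissue is not known.

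Marker lists for the cells of the eye differed between the genotypes, and these values stand beside every genotype difference that follows. The summed signal of progenitor markers without Ccnd1 ran from 7453 to 8014 units in wildtype and from 5622 to 6014 in knockout pools, with 4 of 10 tested genes lower and 1 higher. Cycling-cell markers fell from 9550 to 9803 units down to 4591 to 5067, with 11 of 11 tested genes lower. Muller glia markers were at 4811 to 5448 in wildtype and 7509 to 7971 in knockout pools, with 4 of 11 higher. The ganglion cell sum was 4502 to 4796 against 6806 to 6947 (5 of 9 higher), the photoreceptor sum 5839 to 7443 against 8651 to 9200 (3 of 9 higher), and the amacrine and horizontal cell sum 2694 to 3715 against 2130 to 2455 (4 of 9 lower and 1 higher). Lens markers were at 3627 to 9946 units in wildtype and 27760 to 71581 in knockout pools (12 of 16 higher), and ciliary margin markers at 994 to 1362 and 3530 to 4005 (2 of 6 higher). Markers of mesenchyme and fibroblasts were at 494 to 553 in wildtype pools and at 2272, 2570 and 646 in knockout pools 1 to 3 (1 of 6 higher). Sums of pigment epithelium, endothelial and red blood cell markers overlapped between the genotypes, and no marker was at 0. Beside these counts, 2.03% of all tested genes were higher and 2.63% lower by limma at a false discovery rate of 0.1. The part of these differences in the Wnt pathway values was not tested, and in pooled tissue fewer cells of a type cannot be told apart from less RNA in each cell.

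Most Wnt pathway genes differed little between the genotypes. Of the 28 that were bright enough to be tested, 2 were higher in the knockout (Fzd5 and Dkk3) and 1 was lower (Apc) at a false discovery rate of 0.1 in a limma fit over all 10916 tested genes, where 4.66% of genes were called in either direction, 2.03% higher and 2.63% lower. With the brightest probe set of each gene in this fit, the differences ran from -0.41 to 0.43 on the log2 scale, so none exceeded 1.35-fold. Dimmer probe sets of the members differed by more, from -0.53 (Lrp6) to 0.81 (Sfrp1), and without scaling between arrays Fzd5 differed by 0.60. The median difference of the 28 in the reported fit was 0.05, against 0.02 over all tested genes. At an unadjusted p under 0.05, 4 members were higher (Fzd1, Fzd5, Dkk3 and Ctnnb1) and 3 lower (Wnt5b, Fzd3 and Apc), 7 of 28 members, where 13.5% of all genes reached that level, 6.68% higher and 6.84% lower. At a false discovery rate of 0.05 only Dkk3 was called, where 2.95% of all genes were. For 18 of the 28 the 95% interval of the difference lay within 1.5-fold either way, as it did for 64.6% of all genes, and the interval of the 25 members without a call reached from 0.21 to 0.71 to either side.

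The 3 calls had small differences and depended on the error model, the scaling and single pools. With the error model that the submitters described, no member was called, where 1.91% of all genes were. The calls of Fzd5, Dkk3 and Apc each ended when any single pool other than wildtype pool 3 was left out. The limma adjusted p was then 0.147 to 0.244 for Fzd5, 0.133 to 0.224 for Dkk3 and 0.232 to 0.390 for Apc. Of all tested genes, 1.53% to 3.05% were called in those fits, against 4.66% with all pools. With arrays centred on their medians, Fzd5 and Dkk3 differed by 0.53 and 0.42 but did not pass (limma adjusted p = 0.147 and 0.117). In that setting 2.67% of all genes passed. With the first 2 pools of each genotype, which were so alike, averaged into 1, none of the 3 passed (limma adjusted p = 0.494 for Fzd5, 0.432 for Dkk3 and 0.760 for Apc). Only 0.394% of all genes passed there. Over 23 alternative settings, the submitters' error model among them, the adjusted p ran from 0.00602 to 0.626 for Fzd5, 0.00551 to 0.432 for Dkk3 and 0.0143 to 0.760 for Apc, and the direction of none of the 3 changed.

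**Figure D1:**
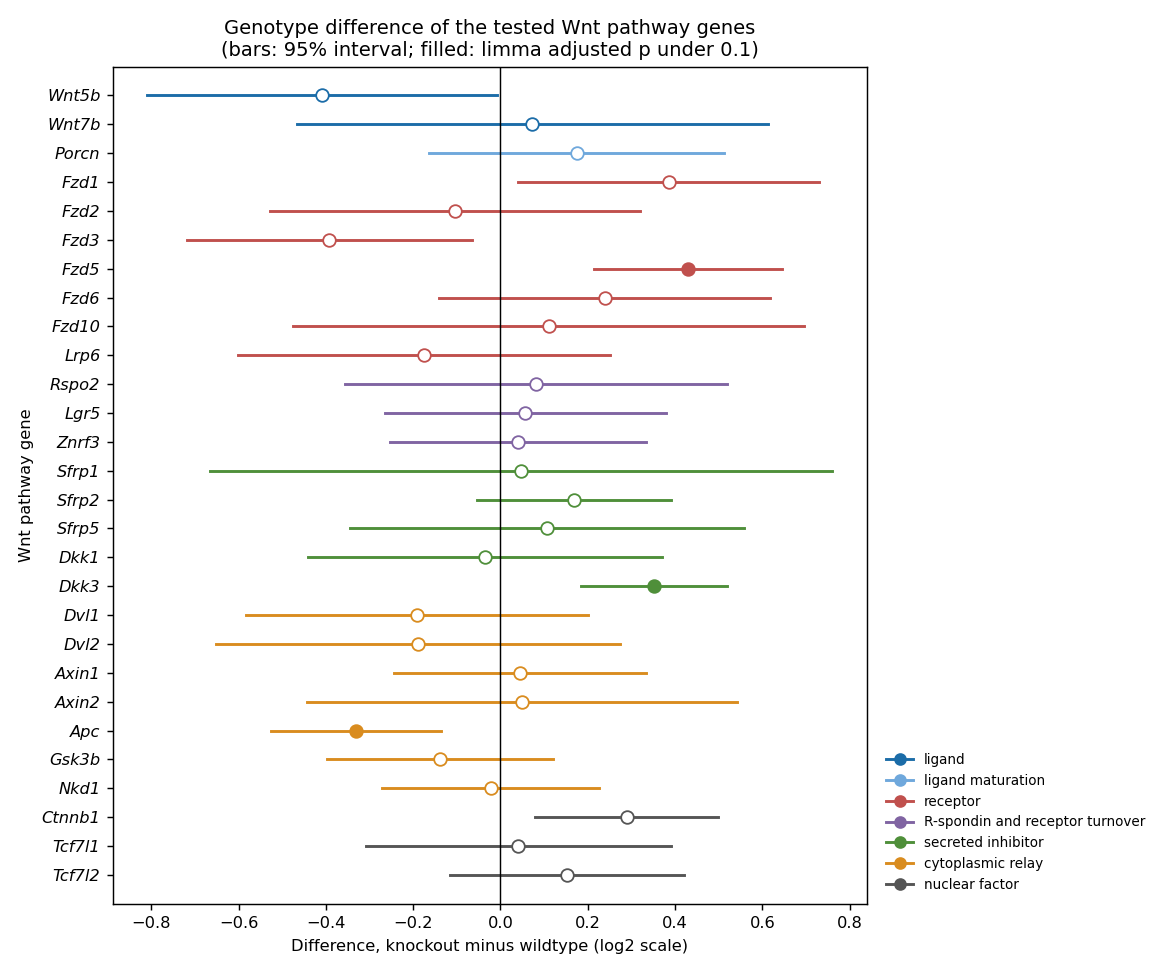
Difference between knockout and wildtype retinas for the 28 tested Wnt pathway genes, in order of role (y axis), on the log2 scale (x axis), with 95% intervals from the limma fit as bars and 3 pools per genotype. Filled points are the genes with an adjusted p under 0.1, Fzd5 and Dkk3 to the right of 0 and Apc to the left, and the widest interval is that of Sfrp1.

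No Wnt ligand passed the test. Wnt5b, a ligand mostly tied to beta-catenin-independent signalling, had a signal of 6.65, 6.95 and 6.53 in wildtype pools 1 to 3 and of 6.15, 6.22 and 6.53 in knockout pools 1 to 3. Knockout pools 1 and 2 lay below all wildtype pools, and the pools numbered 3 of both genotypes were level (difference -0.41, SE 0.17, limma adjusted p = 0.358). The suffix of this Wnt5b probe set, 1439373_x_at, marks probes that may also match other transcripts. The other Wnt5b probe set, which was too dim to be tested, differed by -0.03. Wnt7b, which is made by neurons and acts on vessels in the brain, was at 7.03, 6.56 and 7.33 in wildtype and at 7.26, 7.18 and 6.70 in knockout pools, with both genotypes spread over nearly the same range (difference 0.07, 95% interval -0.47 to 0.61). Its other probe set, 1420891_at, which was too dim to be tested, separated the genotypes, at 5.14, 4.95 and 4.80 in wildtype and 5.39, 5.56 and 5.43 in knockout retinas (difference 0.50). Porcn, the enzyme that attaches the lipid to Wnt ligands, differed by 0.17 with an interval of -0.16 to 0.51. Wnt2b, Wnt3, Wnt4, Wnt5a and Wnt11 were too dim to be tested.

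Among the receptors, Fzd5 rose and the other 6 tested genes did not pass. Fzd5 encodes a Frizzled receptor of the developing neural retina. Its signal was 8.80, 8.77 and 8.71 in wildtype pools 1 to 3 and 9.09, 9.17 and 9.31 in knockout pools 1 to 3. The pools of one genotype lay close together and well apart from those of the other, 8.76 ± 0.05 against 9.19 ± 0.11 (SD, n = 3), a rise of 1.35-fold (difference 0.43, SE 0.09, limma adjusted p = 0.0550). The difference was 0.42 in the set of arrays with brighter controls and 0.52 in the other. The second Fzd5 probe set, which was dimmer, showed no such rise, with a difference of -0.05, and the mean of both probe sets differed by 0.19 (limma adjusted p = 0.626).

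Fzd1 and Fzd3, also Frizzled receptors, had knockout pools that lay to one side of all wildtype pools but did not pass the test over all genes. With and without a call, the pools did not overlap for 8 of the 28 members, 6 higher and 2 lower, and for 20% of all tested genes, 10.5% higher and 9.48% lower. Fzd1 was at 6.33, 6.43 and 6.18 in wildtype and at 6.72, 6.85 and 6.53 in knockout pools (difference 0.39, SE 0.15, limma adjusted p = 0.298), and it differed by 0.61 where controls were brighter and by 0.15 where they were dimmer. Fzd3, which serves axon growth and planar polarity, was at 8.18, 8.40 and 7.96 in wildtype and at 7.65, 7.84 and 7.87 in knockout pools (difference -0.39, SE 0.14, limma adjusted p = 0.254). Knockout pool 3 lay only just below wildtype pool 3, and the within-set differences were -0.21 and -0.42. The deposited Fzd3 values overlapped, at 269, 295 and 219 units in wildtype and 186, 235 and 223 in knockout pools. Of the 3 Fzd3 probe sets bright enough to be tested, the other 2 differed by 0.00 and 0.05. Those too dim to be tested differed by -0.16, -0.30 and -0.51, with overlapping pools in each. The differences of Fzd2, Fzd6, Fzd10 and the co-receptor Lrp6 ran from -0.18 to 0.24, with overlapping pools in each.

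The sequences before the start sites of Fzd5 and Fzd1 are shown because these are the receptor genes whose knockout pools all lay above the wildtype pools. They are the 250 bases before the start, 5′ to 3′ on the gene's strand, from RefSeq on GRCm38.p6. Capitals mark matches on either strand to CTTTGA, the core of Tcf and Lef sites, to the E2F motifs TTTGGCGC, TTTCGCGC and TTTCCCGC, or to the GC box GGGCGG, and no match in these 2 windows overlaps another.
Fzd5, chr1:64737751-64738000, minus strand: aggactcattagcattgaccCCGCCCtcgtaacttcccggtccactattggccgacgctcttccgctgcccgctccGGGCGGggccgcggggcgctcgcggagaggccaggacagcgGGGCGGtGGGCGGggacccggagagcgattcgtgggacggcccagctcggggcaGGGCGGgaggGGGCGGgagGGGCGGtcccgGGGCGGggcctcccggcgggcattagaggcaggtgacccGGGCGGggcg
Fzd1, chr5:4758217-4758466, minus strand: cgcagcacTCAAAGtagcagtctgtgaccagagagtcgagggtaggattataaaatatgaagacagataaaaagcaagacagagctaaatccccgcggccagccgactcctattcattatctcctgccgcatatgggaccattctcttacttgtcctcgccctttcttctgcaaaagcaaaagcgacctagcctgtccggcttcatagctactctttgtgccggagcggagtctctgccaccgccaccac
The Fzd5 window held 9 GC boxes and its GC content was 76.4%, against 51.2% in the Fzd1 window and a median of 52.4% over all 32851 windows of this length. The Fzd1 window held 1 match to the Tcf and Lef core, 237 to 242 bases before the start. Windows were at hand for 28 members, of which 7 (Dkk1, Frzb, Fzd1, Gsk3b, Lef1, Wnt11 and Wnt5b) held the Tcf and Lef core, 2 (Sfrp5 and Wnt11) an E2F motif and 22 a GC box, against 13.8%, 1.53% and 32.7% of all windows. These are not the 28 tested members. Only 15 members with a window were tested, of which 4 held the Tcf and Lef core, 1 an E2F motif and 10 a GC box. A match is a description of the letters and not of binding.

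Of 5 genes for R-spondins and receptor turnover, 3 were bright enough to be tested and none of these passed. Rspo2, a secreted enhancer of Wnt signalling, was at 7.93, 7.80 and 8.28 in wildtype and at 8.27, 8.26 and 7.72 in knockout retinas, so wildtype pool 3 sat with knockout pools 1 and 2 and knockout pool 3 with wildtype pools 1 and 2. Its difference was 0.08, with an interval of -0.36 to 0.52. Its other probe set, 1430104_at, ran the opposite way, at 7.77, 7.72 and 7.57 in wildtype and 7.43, 7.56 and 7.35 in knockout retinas, without overlap (difference -0.24, limma adjusted p = 0.582 with each probe set tested singly). The R-spondin receptor Lgr5 differed by 0.06 and the ubiquitin ligase Znrf3, which removes Frizzled receptors from the surface, by 0.04, with intervals of -0.27 to 0.38 and -0.25 to 0.33.

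Of the secreted inhibitors, Dkk3 rose. Dkk3 is a divergent member of the Dickkopf family that is also found in Muller glia. Its signal was 10.53, 10.40 and 10.54 in wildtype and 10.88, 10.77 and 10.88 in knockout pools, 10.49 ± 0.08 against 10.84 ± 0.06 (SD, n = 3), a rise of 1.28-fold (difference 0.35, SE 0.07, limma adjusted p = 0.0454). Every knockout pool lay above every wildtype pool, and the within-set differences were 0.28 and 0.42. The other Dkk3 probe set differed by 0.28. Sfrp2 had knockout pools just above the wildtype pools (8.40, 8.37 and 8.47 against 8.18, 8.24 and 8.31), a difference of 0.17 that did not pass (limma adjusted p = 0.569). Sfrp5 and Dkk1 differed by 0.11 and -0.04 with overlapping pools.

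Sfrp1, a secreted Frizzled-related protein that binds Wnt ligands, gave different results with different probe sets. The brightest, 1438620_x_at, whose suffix marks probes that may also match other transcripts, was at 7.77, 6.998 and 7.99 in wildtype and at 8.08, 7.69 and 7.13 in knockout pools, a difference of 0.05 (95% interval -0.67 to 0.76). Probe set 1428136_at was at 7.08, 7.27 and 7.22 in wildtype and at 7.77, 7.90 and 7.88 in knockout pools. Here the genotypes did not overlap, and the difference was 0.66 (SE 0.12, limma adjusted p = 0.0324 with each probe set tested singly, where 3.53% of all probe sets were called), with 0.61 where controls were brighter and 0.70 where they were dimmer. Of the other 3 probe sets, 1460187_at differed by 0.81 with no overlap, and 1448395_at and 1416594_at by 0.31 and 0.36 with overlap. All 5 were higher on average in the knockout. Probe sets other than the brightest were singled out after their values were seen. Over 13 settings, the submitters' error model among them, the adjusted p of 1428136_at ran from 0.00950 to 0.473 and was above 0.1 in 7, among them leaving out wildtype pool 1 or any knockout pool.

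Of the cytoplasmic proteins, Apc fell. Apc is the scaffold of the complex that marks beta-catenin for destruction. Its signal was 9.09, 9.14 and 9.13 in wildtype and 8.73, 8.85 and 8.78 in knockout pools, 9.12 ± 0.02 against 8.79 ± 0.06 (SD, n = 3), a fall of 1.26-fold (difference -0.33, SE 0.08, limma adjusted p = 0.0963). On this scaled signal every knockout pool lay below every wildtype pool, and the within-set differences were -0.34 and -0.33. The deposited Apc values overlapped, at 516, 494 and 499 units in wildtype and 419, 511 and 433 in knockout pools. Of the 4 Apc probe sets bright enough to be tested, 3 were lower by 0.30 to 0.33 and 1 was higher by 0.06. The call was lost without scaling between arrays, where the Apc difference was -0.15 (limma adjusted p = 0.607) and the median of all genes moved up to 0.13, and with arrays centred on their medians (-0.22, limma adjusted p = 0.720).

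No other relay protein passed. Gsk3b, the kinase of the destruction complex, had differences from -0.23 to -0.04 over its 4 tested probe sets, with overlapping pools in each. The scaffold Axin1 differed by 0.04. Dvl1 and Dvl2, which pass the signal on from Frizzled, both differed by -0.19. Axin2 and Nkd1, feedback inhibitors that are switched on by beta-catenin in many tissues, differed by 0.05 (95% interval -0.44 to 0.54) and -0.02 (-0.27 to 0.23). Axin2 was at 7.23, 7.09 and 7.89 in wildtype and at 7.53, 7.53 and 7.29 in knockout pools, so the highest and the lowest value were both wildtype.

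**Figure D2:**
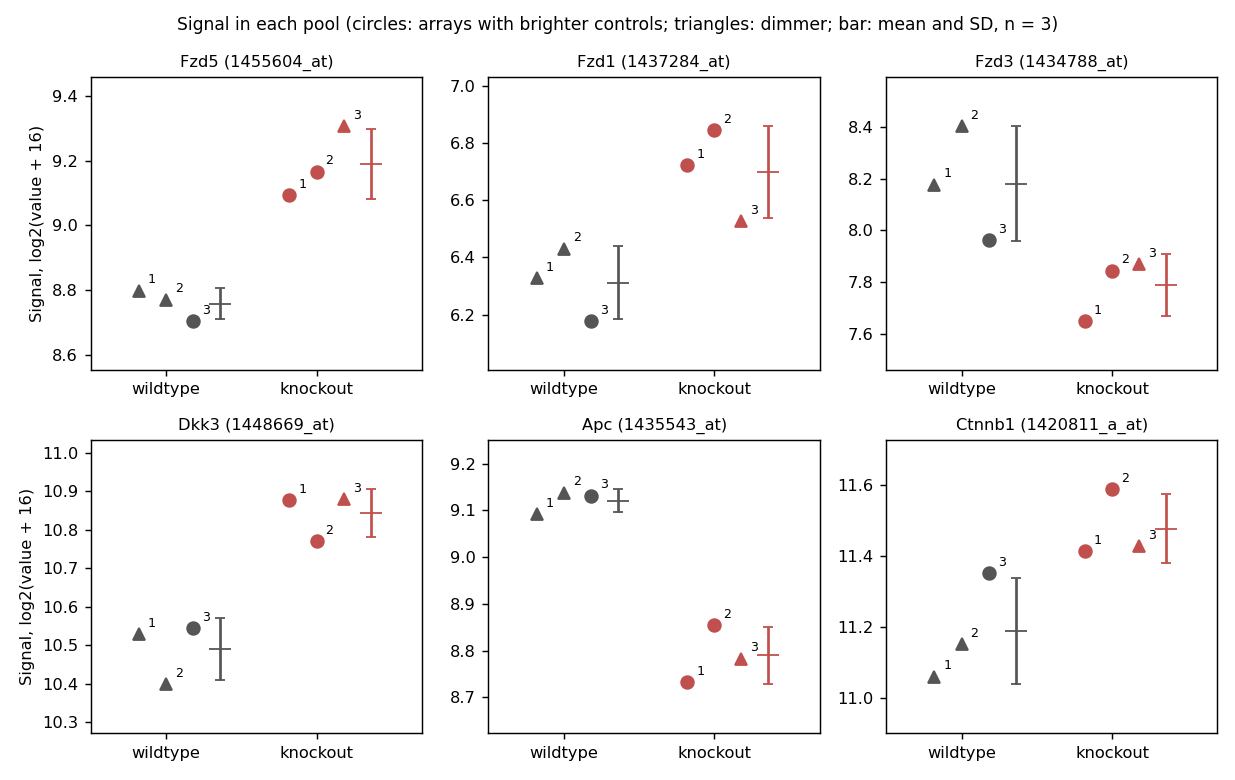
Signal of Fzd5, Fzd1, Fzd3, Dkk3, Apc and Ctnnb1 in each numbered pool (y axis, log2 of signal + 16, not starting at 0) by genotype (x axis), with the mean and SD of 3 pools beside the points and array sets as circles and triangles. The genotypes do not overlap in any panel, and the gap is narrowest for Ctnnb1, Fzd3 and Fzd1.

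Ctnnb1, the gene of beta-catenin, was higher in the knockout pools in all 3 of its probe sets, and 2 of them passed when tested singly. The brightest was at 11.06, 11.15 and 11.35 in wildtype and at 11.41, 11.59 and 11.43 in knockout pools, without overlap but with wildtype pool 3 close to the knockout pools (difference 0.29, SE 0.09, limma adjusted p = 0.180). Probe set 1450008_a_at was at 9.21, 9.06 and 9.44 in wildtype and at 9.81, 9.72 and 9.87 in knockout pools (difference 0.57, SE 0.11, limma adjusted p = 0.0395 with each probe set tested singly). Probe set 1430533_a_at was at 8.58, 8.11 and 8.64 in wildtype and at 9.20, 8.96 and 9.22 in knockout pools (difference 0.68, SE 0.15, limma adjusted p = 0.0651, tested in the same way). On arrays with brighter controls these differed by 0.33 (1450008_a_at) and 0.44 (1430533_a_at), and on the others by 0.74 and 0.87. Over the same 13 settings the adjusted p ran from 0.00302 to 0.444 and from 0.0154 to 0.358, and each of the 2 lost its call in 8, among them leaving out any single pool other than wildtype pool 3.

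The Tcf factors that bring beta-catenin to DNA did not pass. Tcf7l2 had knockout pools above wildtype pools in its brightest probe set (7.33, 7.33 and 7.41 against 7.26, 7.15 and 7.20, a difference of 0.15), while its other 2 tested probe sets differed by -0.06 and -0.25. Tcf7l1 differed by 0.04, with an interval of -0.31 to 0.39, and Lef1 was too dim to be tested.

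**Figure D3:**
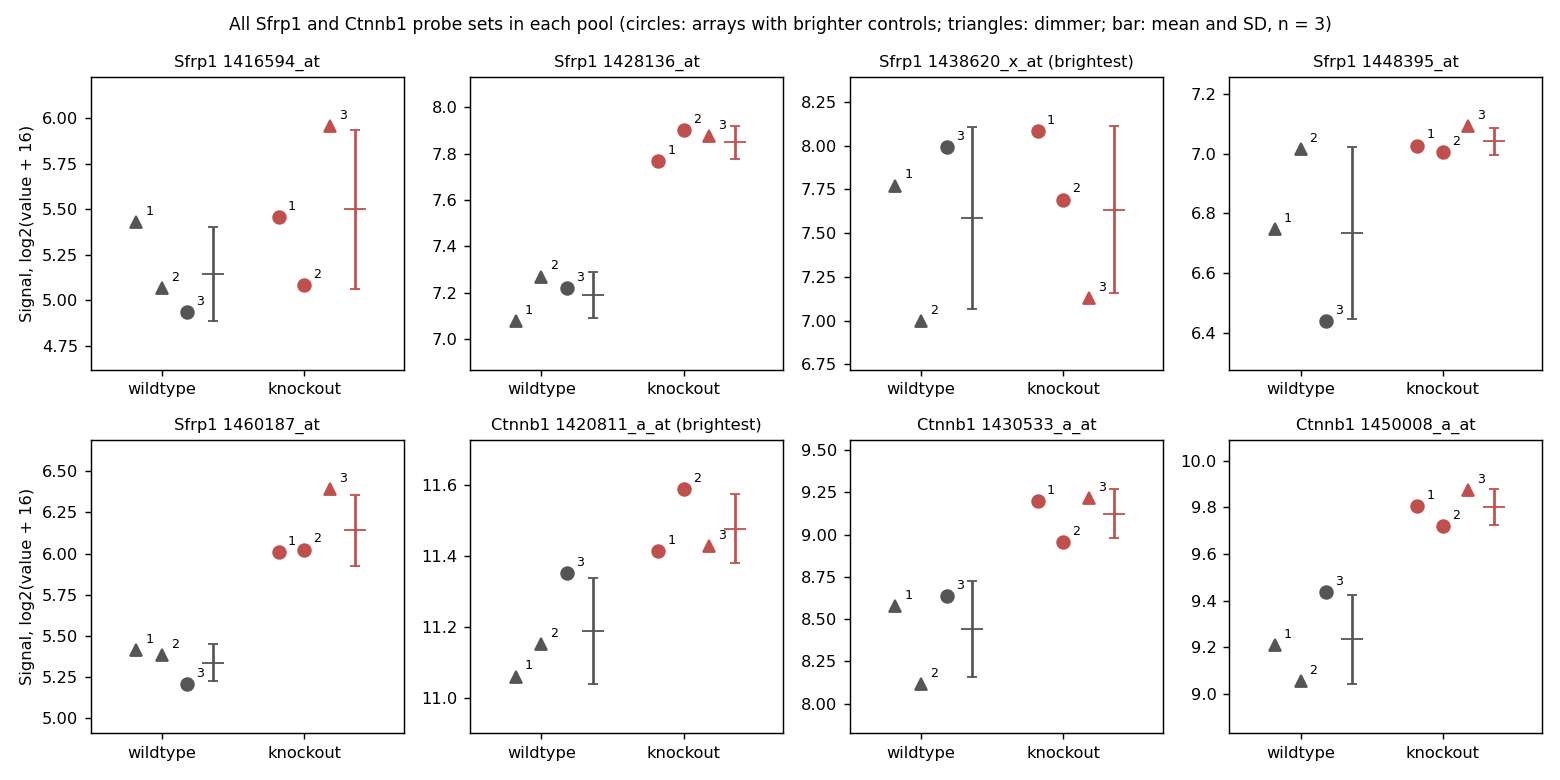
Signal of all 5 Sfrp1 and all 3 Ctnnb1 probe sets in each numbered pool (y axis, log2 of signal + 16, not starting at 0) by genotype (x axis), with mean and SD of 3 pools and array sets as circles and triangles. Sfrp1 1428136_at and 1460187_at and all Ctnnb1 probe sets separate the genotypes, and the brightest Sfrp1 probe set does not.

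Probe sets of the same gene did not always have the same sign. The 45 members had 102 probe sets, of which 58 were bright enough to be tested singly. Of these, 5 were called higher (1 each for Fzd5, Dkk3 and Sfrp1 and 2 for Ctnnb1) and none lower by limma, where 3.53% of all probe sets were called. Of 17 members with several tested probe sets, all tested probe sets had the same sign in 5 (Ctnnb1, Dkk3, Gsk3b, Lrp6 and Sfrp1) and differed in sign in 12. Some of these differences were small beside their SE, such as -0.14 (SE 0.18) and 0.04 (SE 0.13) for Axin1. The share of mixed signs over all genes is not given, so the count is not a result about these members. Of the 57 probe sets that did not stand for their gene, 7 were higher and 4 lower in the knockout without overlap of the pools, where 13.0% of such probe sets of all genes did not overlap.

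Several members followed the set of arrays more closely than the genotype, about as often as tested genes in general did. In a fit with both terms, the difference between the sets with brighter and dimmer controls was larger in size than the genotype difference for 17 of the 28 members, 60.7% of them, and for 61.2% of all tested genes. It was largest for Sfrp1 (0.68, brightest probe set), Wnt7b (0.53), Axin2 (0.48), Rspo2 (0.48), Sfrp5 (0.45) and Fzd10 (0.43), all higher on the arrays with brighter controls, and for Dvl2, which was lower there (-0.43). Sfrp5, for example, was at 7.88 in wildtype pool 3 and at 7.59 and 7.75 in knockout pools 1 and 2, against 7.24 and 7.30 for wildtype pools 1 and 2 and 7.39 for knockout pool 3. The 2 sets of arrays did not overlap for 8 of the 28 members (Wnt5b, Wnt7b, Rspo2, Znrf3, Sfrp5, Dkk1, Dvl2 and Axin2), and for 32.5% of all tested genes. The sets were found in these same data, so no test of the difference between them is given. The summed signal of pigment epithelium markers was 1366 to 1527 units on the arrays with brighter controls and 1841 to 1994 on the others, and their part in these differences was not tested. Fzd5, Dkk3 and Apc differed by -0.13, 0.01 and 0.01 between the sets, and with the set as a block their genotype differences were 0.47, 0.35 and -0.34 (limma adjusted p = 0.0169, 0.0439 and 0.0627, where 9.44% of all genes were called). The block was cut by rank on these same arrays, so that fit is no independent check of the 3 calls.

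**Figure D4:**
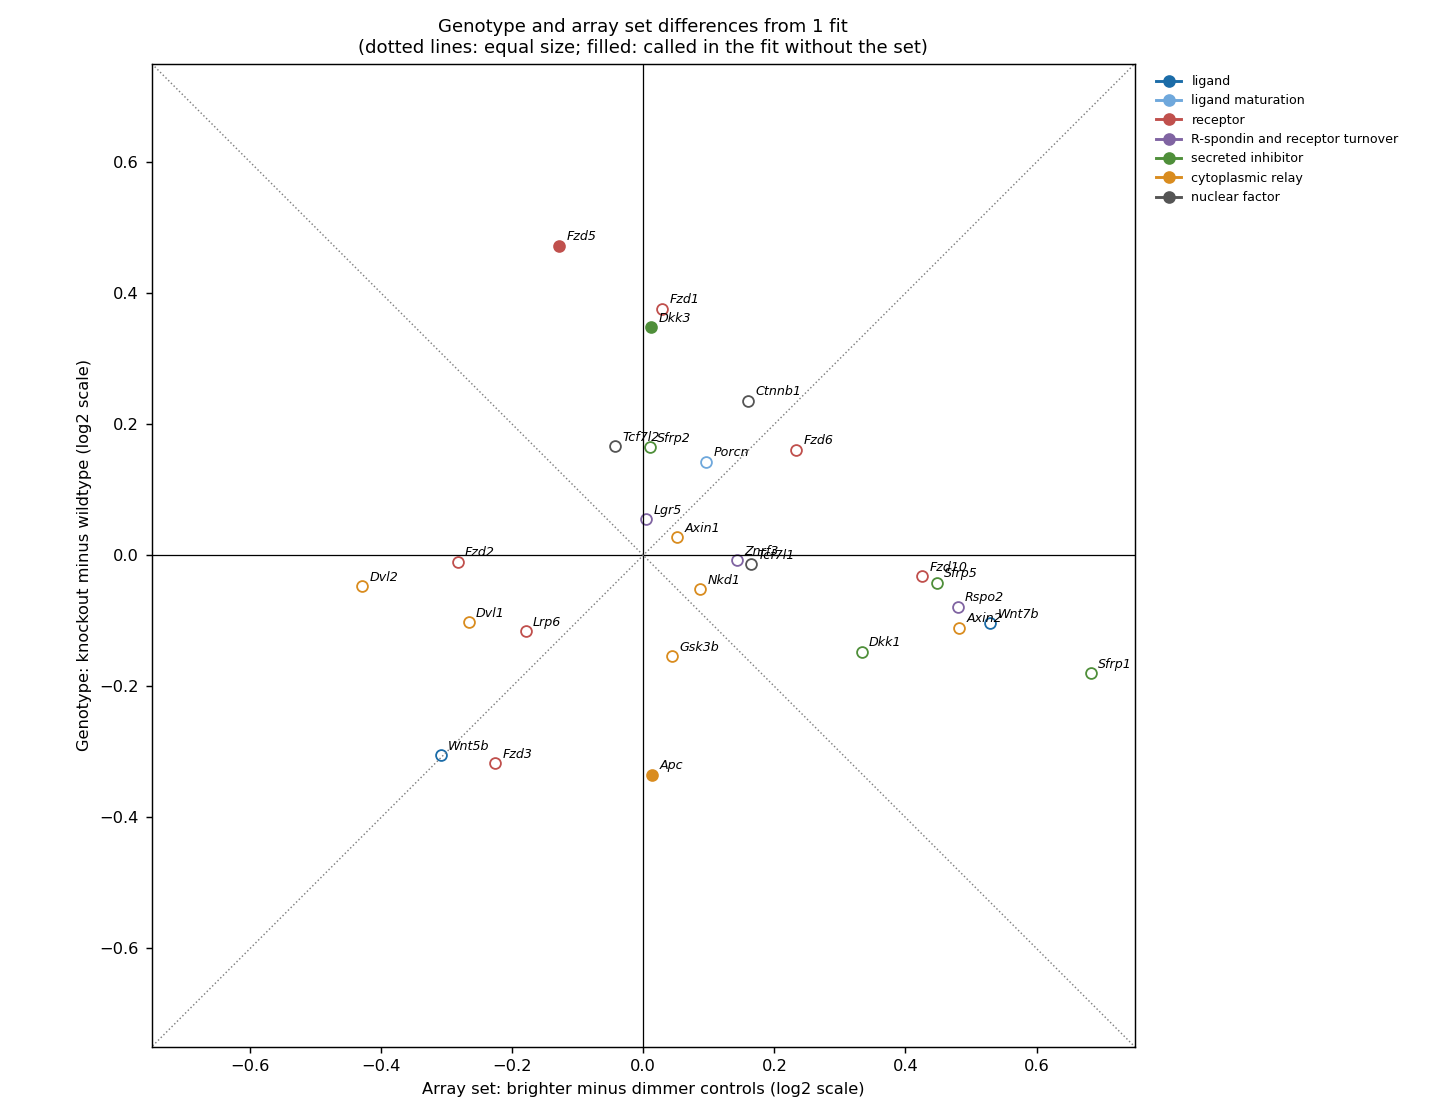
Genotype difference (y axis, knockout minus wildtype) against the difference between arrays with brighter and dimmer controls (x axis), both on the log2 scale and from the same limma fit, for the 28 tested members coloured by role. Filled points are the genes called in the fit without the array set. Fzd5, Dkk3 and Apc lie near the vertical line at 0, and Sfrp1, Wnt7b, Axin2, Rspo2, Sfrp5 and Fzd10 lie far to the right, close to the horizontal line.

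The other 17 members were among the 40% of genes with the lowest mean signal and were not tested. They were Wnt2b, Wnt3, Wnt4, Wnt5a and Wnt11, the receptors Fzd4, Fzd7, Fzd8, Fzd9 and Lrp5, Rspo1 and Rspo3, the inhibitors Frzb, Wif1 and Dkk2, Dvl3 and Lef1. Their values in single pools ran from 4.18 to 6.20, where the pseudocount of 16 alone gives a value of 4, and their differences from -0.22 to 0.50. Fzd7 lay closest below the limit (mean 6.05) and Dvl2 closest above it (mean 6.35), with the limit at 6.21. The groups did not overlap in 2 of the 17, and in 10.3% of all genes too dim to be tested. Rspo1 was at 4.63, 4.52 and 4.51 in wildtype and at 5.08, 4.80 and 5.27 in knockout pools, and Frzb at 5.61, 5.71 and 5.77 in wildtype and at 5.49, 5.33 and 5.60 in knockout pools.

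Other genes of the pathway were read from a further list of 95, of which 94 had a probe set and 60 were tested. By limma 3 were higher (Igfbp4, Tspan12 and Gpc4) and none lower, where 2.03% of all tested genes were higher and 2.63% lower. Without adjustment, 7 were higher and 1 lower at p under 0.05, where 13.5% of all genes reached that level. With the submitters' error model 1 was higher and none lower, where 1.91% of all genes were called. The median difference was 0.04. Igfbp4, which binds insulin-like growth factors and can also block Frizzled receptors, was at 10.19, 10.004 and 9.56 in wildtype and at 10.90, 10.68 and 10.50 in knockout pools (difference 0.77, SE 0.17, limma adjusted p = 0.0553). The within-set differences of Igfbp4 were 1.22 and 0.40, and all 6 of its probe sets were higher, by 0.47 to 0.77. Tspan12, a membrane partner of Fzd4 in Norrin signalling, was at 6.25, 5.82 and 5.76 in wildtype and at 6.81, 6.56 and 6.70 in knockout pools (difference 0.74, SE 0.17, limma adjusted p = 0.0731). Gpc4, a cell-surface heparan sulphate proteoglycan, was at 7.30, 7.14 and 7.23 in wildtype and at 7.79, 7.73 and 7.72 in knockout pools (difference 0.53, SE 0.11, limma adjusted p = 0.0550), and its dimmer probe set differed by 0.20. For all 3 the knockout pools lay above the wildtype pools. None of the 3 was called without wildtype pool 2, knockout pool 1 or knockout pool 2, where 2.48%, 1.53% and 1.65% of all genes were. Without wildtype pool 3, 7 genes of the list were higher, where 17.6% of all genes were called in either direction.

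By role, 2 of 9 other receptors and co-receptors and 1 of 4 other secreted inhibitors passed, and none of 2 ligands, 21 relay proteins, 10 planar polarity genes, 10 nuclear partners and 4 target genes, where 4.66% of all tested genes passed. The ligand gene Ndp, which encodes Norrin, was at 6.11, 6.25 and 6.20 in wildtype and at 6.37, 6.59 and 6.50 in knockout pools, a difference of 0.30 that did not pass (limma adjusted p = 0.403). The nearest to the threshold were Tnks2, a tankyrase that marks Axin for destruction (difference 0.29, limma adjusted p = 0.102), and Tle5, a short relative of the Groucho co-repressors (difference 0.32, limma adjusted p = 0.113). The target genes Mycn, Nrcam, Bambi and Msx1 differed by 0.00 to 0.09.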

How the data were processed

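The table deposited by the authors holds linear intensities, 1 for each probe set on each array, from biotin-labelled RNA after 1 amplification round, per the labels' protocols. How probes were summarised and scaled is not given in the sources used here. Per the labels, the submitters took the larger of an average error variance (window of 200 probe sets) and a Bayesian one (5 degrees of freedom), with false discovery rate 0.1 as threshold.

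Of 45101 probe sets, 64 controls, 932 with several symbols and 9160 without a symbol were left out. Symbols were updated with RefSeq names (GRCm38.p6). Intensities were quantile normalised, values under 1 were set to 1, and 16 was added before log2, so folds on this scale understate changes of dim genes. The lowest 40% of genes were left out and 10916 were tested in R 4.3.3 with limma 3.58.1 (functions lmFit and eBayes, intensity trend, two-sided, Benjamini-Hochberg, threshold 0.1), knockout against wildtype, with all 6 arrays and no covariate. The fit was tested on simulated data with independent errors and planted differences larger than that of any Wnt gene in the reported fit. That test therefore says nothing about calls of the size reported here or about arrays that are alike. The Wnt genes, lists and settings were chosen with earlier results of these data known. Pool-by-pool values were to be given for called members, for members that differed by over 0.5 and for those without overlap that differed by over 0.3. Values for other members, single probe sets and promoter sequences were added after the values were seen. Arrays were ranked on 5 BioB and BioC control probe sets, and the 3 brightest were taken as 1 set. Deviations from the genotype mean correlated between same-numbered pools at 0.17, -0.35 and -0.48 for pools 1 to 3. Within a genotype these deviations sum to 0, and they also carry differences between arrays. They therefore cannot decide whether the numbers pair the pools.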

Additional observations from a re-analysis of the deposited data

How the results depend on the processing

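In the fit described above, 2 Wnt genes were higher and 1 lower, and 3 other pathway genes were higher and 0 lower. The count of Wnt genes higher became 0 with arrays centred on their medians, without an intensity trend, with the submitters' error model and with the first 2 pools of a genotype averaged, 1 at a threshold of 0.05 and in the fit with the replicate block, 4 with every probe set tested singly and 9 with array weights. The count lower became 0 in these settings and also without scaling, with no filter or the lowest 20% left out and with the mean of all probe sets, except that it was 5 with array weights. The mean of all probe sets gave 3 Wnt genes higher of 26 tested (Ctnnb1, Dkk3 and Sfrp1), where 3.79% of all tested genes were called. Other pathway genes higher were 5 without scaling or with a robust variance, 1 with no filter, with the submitters' error model and with the replicate block, 13 with array weights, 7 when the array set was blocked, and 0 at a threshold of 0.05 or with averaged pools, and those lower were 3 with array weights and 1 when the array set was blocked. Leaving out single pools gave 0 to 3 Wnt genes higher, 0 to 3 lower, 0 to 7 other genes higher and 0 to 2 lower, with the highest counts without wildtype pool 3. The share of all tested genes called was 4.66% in the reported fit, 33.0% with array weights and 17.6% without wildtype pool 3. It was 1.53% to 3.05% with any other single pool left out. With the array set blocked it was 9.44%, without scaling 5.40%, with no filter 2.16% and with the replicate block 2.46%. Arrays centred on their medians gave 2.67%, no intensity trend 3.48%, the submitters' error model 1.91% and averaged pools 0.394%. Of probe sets tested singly, 3.53% were called. The cause was not tested. With the replicate block only Dkk3 of the 3 Wnt calls remained. No pool correlated best with its own number, but these correlations cannot decide whether the numbers pair the pools. Fzd5, Dkk3, Apc, Igfbp4, Tspan12 and Gpc4 kept their direction in every setting, as did Fzd1 and Fzd3. Of the 28 tested Wnt genes, 15 changed sign in at least 1 setting, and their reported differences lay between -0.18 and 0.11. The table gives no detection calls, so no signal over background can be given.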

Other observations

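Nkd1, Fzd2 and Lrp6 had single probe sets that stood apart from the others of the same gene. Nkd1 probe set 1417278_a_at was at 6.35, 6.38 and 5.80 in wildtype retinas and at 6.64, 6.59 and 6.69 in those of the knockout (pools 1 to 3), without overlap (difference 0.46, limma adjusted p = 0.386 with each probe set tested singly), while its brightest probe set differed by -0.02. Fzd2 probe set 1418534_at was at 8.05 in wildtype pool 3 and at 7.46 and 7.36 in knockout pools 1 and 2, against 6.84 and 6.91 for wildtype pools 1 and 2 and 6.89 for knockout pool 3, so it separated the sets of arrays and not the genotypes. Lrp6 probe set 1451022_at was at 5.05 in knockout pool 1 and between 6.23 and 6.76 in the other 5 pools. These were chosen after their values were seen.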
